A study of Mus musculus with 12 samples.

Results

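The genes of the Mediator complex were taken as all symbols that begin with Med and a digit, together with Cdk8, Cdk19 and Ccnc, with transcript values added up per symbol. That gave 34 of 23183 symbols in the tables. One of them, Med9os, is a noncoding RNA next to Med9 and not a subunit, which leaves 33 subunit genes: 7 in the kinase module, 7 in the head, 9 in the middle, 9 in the tail and Med14. The 26 subunits outside the kinase module are called the core below. Med12, Med13 and Cdk8, called the trio below, were selected on earlier results of these data, in which Med12 stood out between stressed and unstressed mice. Calls and fold changes between SS and C mice are therefore given as a description of these libraries, with no p-value of a subunit, and support nothing. All 34 genes passed the filter on low counts.

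Mediator is a large protein complex that carries signals from DNA-bound transcription factors to RNA polymerase II. Its head and middle modules touch the polymerase, its tail module is the main contact for activators, and Med14 is the scaffold that joins them. A separate kinase module, built of Cdk8 or Cdk19, cyclin C (Ccnc), Med12 or Med12l and Med13 or Med13l, docks on and leaves this core, and while docked it blocks the polymerase from binding. In neurons the complex takes part in switching on activity-dependent and stress-hormone-dependent genes.

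The RNA came from the ventral hippocampus of 12 wild-type male C57BL/6J mice, 3 per group, that entered the study at 8 weeks of age. SES mice (numbers 9, 10 and 12) had become stress-susceptible under restraint for 2 h a day over 14 days, then had a running wheel, and their behaviour improved. SER mice (numbers 6, 19 and 20) had the same restraint and wheel with little or no improvement. SS mice (numbers 18, 19 and 21) were stress-susceptible after restraint and had no wheel, and C mice (numbers 2, 8 and 12) had neither restraint nor wheel. The labels give 14 days of running in the titles and 4 weeks in the protocol text. SES and SER were told apart by behaviour after running, so they were not assigned at random. Whether sedentary SS mice would have responded is not known from the labels.

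The libraries held 9323607 to 15707516 counts. Levels are given as CPM, the usual scaling of counts to a common library size, here with TMM factors. SS mice 19 and 21 stood apart from SS mouse 18. Across genes, log2 CPM correlated at 0.993 between SS mice 19 and 21, and at 0.962 and 0.959 between each of them and SS mouse 18. Genes are not independent replicates, so these values only describe the libraries. Malat1, an abundant RNA retained in the nucleus, was at 1068, 1381 and 1974 CPM in SES mice, 1398, 1472 and 988 CPM in SER mice, 505, 3761 and 5257 CPM in SS mice, and 505, 263 and 489 CPM in C mice. SS mouse 18 was thus level with the C mice, and SS mice 19 and 21 lay above every other mouse. The summed CPM of 7 nuclear noncoding RNAs ran from 2882 to 3999 in SES, 2080 to 2887 in SER, 1282 to 12062 in SS and 1321 to 1732 in C. The lowest SS sum was thus below all C sums. Of the 7, 6 were called higher in SS than in C, against 5.21% of all genes tested. How far calls between SS and C rested on single libraries is given below. Markers of hippocampal pyramidal neurons were high in every library, with summed CPM from 6361 to 9389. Choroid plexus markers ran from 878 to 4885 in SES, 62.7 to 1143 in SER, 19.4 to 5327 in SS and 11.5 to 3669 in C, so they varied within groups. Fold changes of the subunits called between SS and C are given below with and without these 2 mice.

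The promoters of 5 genes are shown for comparison: those of the trio, and those of Med21 and Med6, picked for display after their lower values in SS than in C were seen. The sequences are RefSeq, build GRCm38.p6, from 250 bases before to 50 bases after the start that the promoter table uses, written 5′ to 3′ on the gene's strand. That start is the end of the gene's span for Med12, Med13, Med21 and Med6, and lies 455 bases inside the span for Cdk8. They lie at chrX:101273841-101274140 (plus strand), chr5:146231000-146231299 (plus), chr11:86357547-86357846 (minus), chr6:146642329-146642628 (plus) and chr12:81594959-81595258 (minus). Capitals mark matches on either strand to any of 7 motifs, with overlapping matches each counted. The GC box was searched as GGGCGG and the ETS motif as CCGGAAG. For the YY1 motif the letters were AANATGGC, and for the cAMP response element they were TGACGTCA. The NRF1 core was searched as CGCATGCG, and the TATA box and CCAAT box by the letters TATAAA and CCAAT.
Med12: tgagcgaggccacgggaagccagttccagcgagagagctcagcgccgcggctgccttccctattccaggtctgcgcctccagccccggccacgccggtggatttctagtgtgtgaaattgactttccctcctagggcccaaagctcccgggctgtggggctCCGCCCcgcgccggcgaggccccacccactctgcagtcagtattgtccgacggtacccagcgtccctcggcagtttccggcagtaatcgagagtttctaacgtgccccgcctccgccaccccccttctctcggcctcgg
Cdk8: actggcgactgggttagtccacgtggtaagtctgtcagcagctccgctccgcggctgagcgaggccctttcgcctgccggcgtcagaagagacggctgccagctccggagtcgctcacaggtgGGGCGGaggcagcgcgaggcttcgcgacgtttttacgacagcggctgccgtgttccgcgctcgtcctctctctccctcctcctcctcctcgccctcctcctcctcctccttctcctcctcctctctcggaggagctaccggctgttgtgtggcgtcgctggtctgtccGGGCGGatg
Med13: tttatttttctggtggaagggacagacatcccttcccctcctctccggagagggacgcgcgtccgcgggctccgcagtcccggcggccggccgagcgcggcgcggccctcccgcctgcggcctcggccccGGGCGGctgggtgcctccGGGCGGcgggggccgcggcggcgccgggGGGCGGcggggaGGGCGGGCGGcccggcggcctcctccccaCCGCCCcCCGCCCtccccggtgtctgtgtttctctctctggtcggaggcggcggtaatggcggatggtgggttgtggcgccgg
Med21: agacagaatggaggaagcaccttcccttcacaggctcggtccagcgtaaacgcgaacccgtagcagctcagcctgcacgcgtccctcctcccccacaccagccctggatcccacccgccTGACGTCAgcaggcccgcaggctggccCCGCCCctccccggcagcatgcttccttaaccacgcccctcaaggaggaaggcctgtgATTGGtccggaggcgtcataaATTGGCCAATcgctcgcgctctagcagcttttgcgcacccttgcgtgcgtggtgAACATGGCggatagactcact
Med6: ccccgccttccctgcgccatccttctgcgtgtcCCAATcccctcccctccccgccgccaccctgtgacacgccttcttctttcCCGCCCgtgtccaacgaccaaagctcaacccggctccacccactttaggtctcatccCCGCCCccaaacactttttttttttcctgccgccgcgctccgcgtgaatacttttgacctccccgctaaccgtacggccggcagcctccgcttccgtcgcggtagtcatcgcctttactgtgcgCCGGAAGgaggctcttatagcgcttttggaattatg

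The trio's promoters matched the GC box alone, at 1 place in Med12, 2 in Cdk8 and 7 in Med13. The Med21 promoter held 3 CCAAT matches and 1 match each to the GC box, the YY1 motif and the cAMP response element. The Med6 promoter held 2 GC boxes, 1 CCAAT match and 1 ETS match. The promoter table had entries for 28 of the 33 subunits. The GC box was in 67.9% of these 28 subunits and in 35.7% of all 32851 promoters of this length, CCAAT in 39.3% and 37.4%, the ETS motif in 28.6% and 8.86%, the YY1 motif in 17.9% and 6.05%, the cAMP response element in 3.57% and 1.79%, the NRF1 core in 7.14% and 1.87%, and TATAAA in 10.7% and 13.6%. A subunit with more than 1 promoter entry was counted as holding a motif if any entry held it. These are letter matches and not binding sites.

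Between SS and C mice the Mediator genes did not move as one block. Of 33 subunits, 5 were called higher in SS (Med12, Med23, Med12l, Med24 and Cdk8) and 2 lower (Med21 and Med6), by edgeR's quasi-likelihood test at an adjusted p under 0.05. Over all 14541 genes tested, 9.83% were called, 5.21% higher and 4.63% lower. Nothing is read from the members' count, because these genes were chosen with this comparison known. The 3 SS mice lay wholly above or below the 3 C mice for 13 of 33 subunits, 8 higher and 5 lower, against 26.9% of all genes. The median log2 fold change was 0.17 for the kinase module, -0.08 for the head, -0.14 for the middle and 0.19 for the tail, and 0.02 for all genes tested. In bulk tissue a lower level cannot be told apart from fewer cells that express a gene.

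The calls rested on few libraries. With the fit repeated without SS mouse 18, 9 subunits were called, and 25.7% of all genes. Without C mouse 2, 4 subunits were called, and 5.75% of all genes. Without SS mouse 19, SS mouse 21 or C mouse 8, edgeR called no subunit and 0% of all genes, and without C mouse 12 no subunit and 0.528%. At an unadjusted p under 0.05 there were 9 subunits and 28.2% of all genes with all 12 libraries. Without SS mouse 19 there were 7 subunits and 19.0% of all genes, without SS mouse 21 there were 7 and 20.3%, without C mouse 8 there were 9 and 21.7%, and without C mouse 12 there were 11 and 23.4%. Without both SS mice 19 and 21, where the lone SS library is assumed to vary like the other groups, no subunit and no gene was called, and 5 subunits and 14.4% of all genes had an unadjusted p under 0.05. On all 12 libraries DESeq2 and limma-voom each called the same 7 subunits as edgeR, with 15.3% and 8.31% of all genes.

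**Figure D1:**
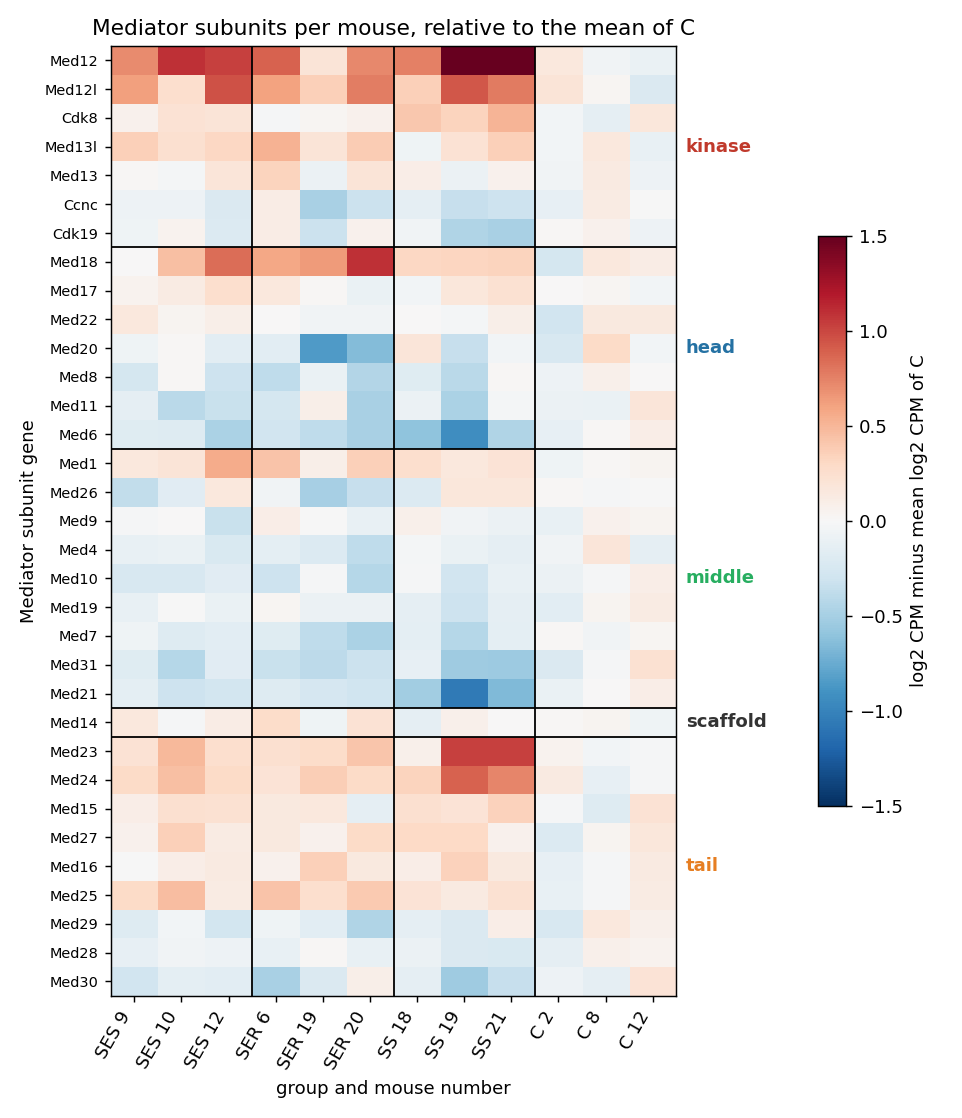
Heat map of 33 Mediator subunit genes (rows, ordered by module and within it by the SS over C fold change) in 12 mice (columns). Colour gives log2 CPM minus the mean log2 CPM of the 3 C mice, capped at 1.5 in either direction. Med12, Med23 and Med24 are highest in SS mice 19 and 21, while Med21 and Med6 are lowest in SS mouse 19.

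Within the kinase module the largest difference was in Med12, on chromosome X at 101274091 to 101298934 (RefSeq, GRCm38.p6), which encodes the subunit that activates the kinase. Med12 had 19.7, 25.8 and 24.5 CPM in SES mice, 22.2, 13.8 and 19.9 CPM in SER mice, 20.3, 48.1 and 46.1 CPM in SS mice, and 13.4, 11.6 and 11.2 CPM in C mice, with mice in the order of their numbers throughout. Every restrained mouse was above every C mouse, but SS mouse 18 lay among the running mice and only SS mice 19 and 21 were clear of them. The log2 fold change of SS over C was 1.67 ± 0.28 (standard error), which is 3.18-fold. It was 0.75 without SS mice 19 and 21 and 1.96 without SS mouse 18.

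Cdk8, the kinase itself (chromosome 5, 146230795 to 146302874), showed a smaller and more even difference. It had 19.8, 22 and 21.7 CPM in SES mice, 18.7, 19.3 and 19.9 CPM in SER mice, 25, 23.9 and 27.1 CPM in SS mice, and 18.5, 17.3 and 21.3 CPM in C mice. All 3 SS mice were above all 9 others. The log2 fold change of SS over C was 0.41 ± 0.12, and 0.39 without SS mice 19 and 21.

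Med13, the third of the trio, ties the kinase module to the core (chromosome 11, 86267033 to 86357596), and its groups overlapped. Its CPM was 98.1, 94.7 and 110 in SES mice, 122, 91.4 and 111 in SER mice, 104, 91.4 and 101 in SS mice, and 93.5, 106 and 91.9 in C mice. The log2 fold change of SS over C was 0.02 ± 0.11. The trio thus held a large, a small and no visible difference.

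Of the paralogues, Med12l differed in the direction of Med12, and Cdk19 in the direction opposite to Cdk8. Med12l had 28.1, 21.8 and 35.3 CPM in SES mice, 27.8, 23.4 and 31 CPM in SER mice, 23.4, 34.9 and 31.4 CPM in SS mice, and 20.9, 18.6 and 15.7 CPM in C mice, a log2 fold change of SS over C of 0.70 ± 0.20 (0.34 without SS mice 19 and 21). The span of Med12l on chromosome 3 also contains P2ry12, P2ry13 and P2ry14, of which P2ry12 is a microglial marker. Summed CPM of 5 microglial markers was 219 to 291 in SES, 306 to 324 in SER, 236 to 278 in SS and 248 to 263 in C, with none at 0 and none of the 5 called between SS and C. How reads in that span were divided by strand is not stated in the labels.

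Cdk19, the paralogue of Cdk8, had 77.3, 83.7 and 70.1 CPM in SES mice, 87.7, 65 and 84.6 CPM in SER mice, 77.8, 59.1 and 57.8 CPM in SS mice, and 81.8, 84.4 and 77 CPM in C mice. SS mice 19 and 21 were the lowest of the 12, and SS mouse 18 lay within the range of C. Its log2 fold change of SS over C was -0.32 ± 0.14, opposite in sign to that of Cdk8, and -0.06 without SS mice 19 and 21. Ccnc, the cyclin that both kinases need, had 43.1, 43 and 39.2 CPM in SES mice, 49, 32.3 and 36.4 CPM in SER mice, 41.3, 35.6 and 36.6 CPM in SS mice, and 41.6, 49.6 and 45.4 CPM in C mice. Its log2 fold change was -0.27 ± 0.14, and the SS and C ranges lay close to each other without overlapping. Med13l had 107, 98.6 and 104 CPM in SES mice, 120, 95.6 and 109 CPM in SER mice, 79.9, 97.1 and 107 CPM in SS mice, and 81, 93.6 and 77.1 CPM in C mice. The running mice were above all C mice for Med13l, and the SS mice overlapped them (log2 fold change of SS over C 0.17 ± 0.12).

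**Figure D2:**
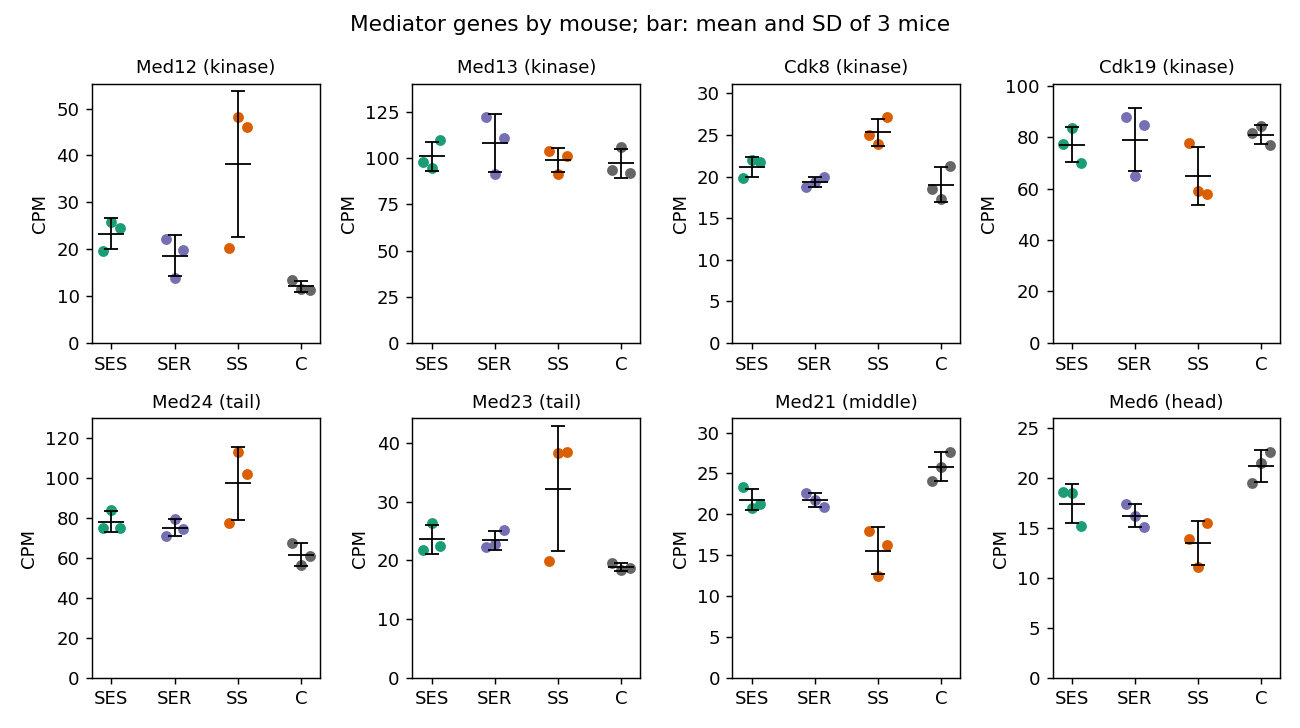
CPM of 8 Mediator genes in each mouse (points), with the mean and SD of the 3 mice of each group (bars). Med12 and Med24 have 2 high SS mice and 1 near the running mice, while Med23 has 2 high SS mice and 1 near the C mice. Cdk8 has 3 SS mice above the other 9, Med13 overlaps throughout, and Med21 and Med6 are low in SS.

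On a per-length scale (CPM per kb of transcript), the RNA level of Cdk19 was above that of Cdk8 in every group. Protein was not measured, so the make-up of the kinase module itself is not known from these values. Cdk8 made up 34.4 ± 2.35% of the summed Cdk8 and Cdk19 level in SES, 32 ± 3.77% in SER, 42.9 ± 4.63% in SS and 30.9 ± 3.31% in C (SD, n = 3). The 3 SS mice, at 37.9, 43.5 and 47.1%, were above all other mice. Med12 made up 57.2 ± 7.27% of Med12 and Med12l in SES, 52 ± 3.88% in SER, 65.9 ± 6.52% in SS and 51.5 ± 1.7% in C. The Med12 share was 65.6% in SES mouse 10 and 58.4% in SS mouse 18, so SES and SS overlapped. Med13 made up 46.3 ± 1.87% of Med13 and Med13l in SES, 46.7 ± 0.834% in SER, 48.1 ± 4.63% in SS and 50.6 ± 0.624% in C.

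**Figure D3:**
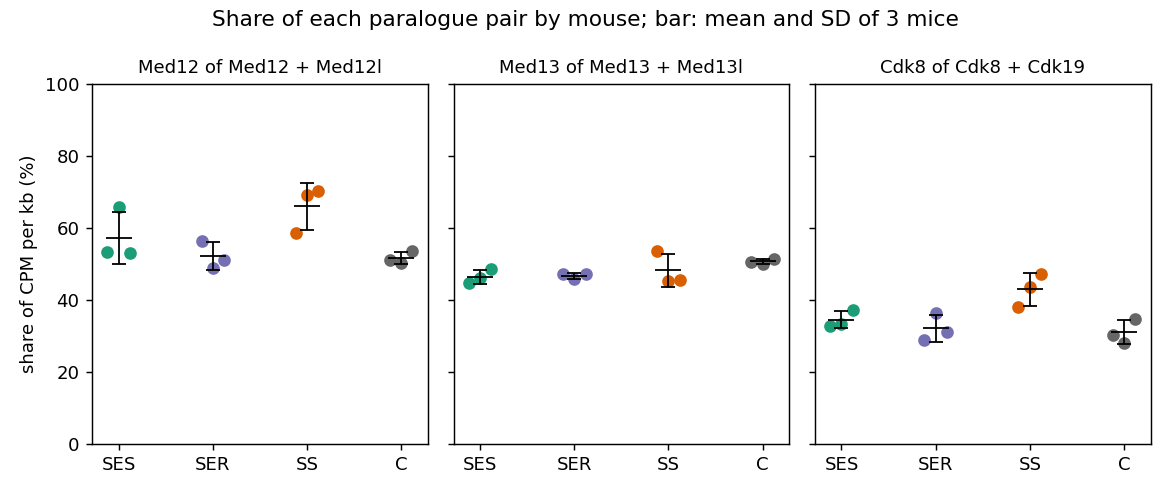
Share of Med12, Med13 and Cdk8 in the summed level of each paralogue pair, in percent of CPM per kb, for each mouse (points) with the mean and SD of 3 mice (bars). The Cdk8 share in the 3 SS mice, 37.9 to 47.1%, is above that of all other mice, while the Med12 share overlaps between SES and SS.

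In the tail, Med24 and Med23 differed most, and with Med16 they form one sub-assembly of that module. Med24 (chromosome 11, 98704597 to 98729419) had 75, 84.1 and 75.1 CPM in SES mice, 71, 79.6 and 74.7 CPM in SER mice, 77.3, 113 and 102 CPM in SS mice, and 67.6, 56.3 and 60.8 CPM in C mice. All 9 restrained mice were above the C mice, and the log2 fold change of SS over C was 0.66 ± 0.13 (0.32 without SS mice 19 and 21). Med23 is a contact of growth-factor-responsive activators. It is described here, like Med6, after its values were seen. It had 21.8, 26.4 and 22.4 CPM in SES mice, 22.2, 22.8 and 25.2 CPM in SER mice, 19.9, 38.2 and 38.4 CPM in SS mice, and 19.6, 18.3 and 18.6 CPM in C mice. SS mouse 18 was below all 6 running mice, and the log2 fold change of SS over C of 0.78 ± 0.20 was 0.08 without SS mice 19 and 21. Reads of Med23 were divided unevenly between its 2 deposited transcripts, so only the gene sum is used. Med16 had overlapping SS and C groups, with a log2 fold change of 0.19 ± 0.11. Med28, the most abundant tail gene in CPM after Med24, had 66.5, 69.8 and 68.3 CPM in SES mice, 66.8, 73.1 and 67.1 CPM in SER mice, 68.1, 62 and 61.6 CPM in SS mice, and 66.1, 76.2 and 75 CPM in C mice. The other tail genes lay between -0.34 (Med30) and 0.26 (Med15).

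In the middle module, Med21, part of the hinge with Med7, had the lowest fold change of all subunits. Med21 (chromosome 6, 146642579 to 146650600) had 23.3, 20.8 and 21.3 CPM in SES mice, 22.6, 21.7 and 20.9 CPM in SER mice, 18, 12.4 and 16.3 CPM in SS mice, and 24.1, 25.8 and 27.6 CPM in C mice. The groups formed 3 separate levels, with SS below both running groups and C above them. The log2 fold change of SS over C was -0.73 ± 0.14, and -0.52 without SS mice 19 and 21. Med1, which binds nuclear receptors, had 39, 40.2 and 51.7 CPM in SES mice, 47.2, 37.3 and 44.8 CPM in SER mice, 41.6, 39.1 and 40.4 CPM in SS mice, and 33.6, 35.5 and 36.1 CPM in C mice. All 9 restrained mice were above the C mice by a small margin. Med9 overlapped between all groups, at 46.1, 46.9 and 37.1 CPM in SES mice, 50, 46.4 and 43.2 CPM in SER mice, 49.3, 45 and 43.9 CPM in SS mice, and 43.1, 48.9 and 48.1 CPM in C mice. The other middle genes lay between -0.40 (Med31) and 0.06 (Med26) in SS over C.

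In the head, Med6 (chromosome 12, 81573557 to 81595008) had 18.6, 18.5 and 15.2 CPM in SES mice, 17.4, 16.2 and 15.1 CPM in SER mice, 13.9, 11.1 and 15.5 CPM in SS mice, and 19.5, 21.5 and 22.6 CPM in C mice. All restrained mice were below the C mice. The log2 fold change of SS over C was -0.66 ± 0.14, and -0.62 without SS mice 19 and 21. Med17, a central head subunit, had 23.4, 24.6 and 26.8 CPM in SES mice, 25.2, 22.8 and 21.1 CPM in SER mice, 21.9, 25.3 and 26.4 CPM in SS mice, and 22.7, 23 and 21.9 CPM in C mice. Med22 had 37.6, 34.9 and 35.9 CPM in SES mice, 34, 32.7 and 32.5 CPM in SER mice, 34, 33.2 and 36 CPM in SS mice, and 27.6, 37.5 and 37.3 CPM in C mice. Both overlapped between SS and C. The scaffold gene Med14 had 68.8, 61.1 and 66.6 CPM in SES mice, 74.9, 59.3 and 71.8 CPM in SER mice, 56.2, 65.1 and 62.1 CPM in SS mice, and 62.3, 63.8 and 59.3 CPM in C mice, a log2 fold change of SS over C of -0.01 ± 0.10.

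Per kb of transcript, Med10, Med21 and Med9 had the highest levels, at 26.3, 26.1 and 23.8 CPM per kb over the 12 mice, with ranges that overlapped. Med18, Med12l and Med26 had the lowest, at 2.16, 2.36 and 3.23 CPM per kb, and Med12 followed at 3.38 CPM per kb, so the gene with the largest difference was among the scarcest subunits. Med12 ran from 1.64 to 7.06 CPM per kb over the mice.

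Set as a score, the mean log2 CPM of the trio relative to C minus that of the core was 0.30, 0.40 and 0.47 in SES mice, 0.40, 0.10 and 0.41 in SER mice, 0.44, 0.83 and 0.81 in SS mice, and 0.12, -0.04 and -0.08 in C mice. SS mouse 18 lay within the SES range. The pooled SD within groups was 0.157. As fold changes, the trio minus the core came to 0.72 for SS over C, 0.39 for SES over C, 0.31 for SER over C, -0.33 for SES over SS, -0.41 for SER over SS and 0.08 for SES over SER. With all 7 kinase module genes in place of the trio, the SS over C value was 0.36. Without SS mice 19 and 21 the trio value was 0.44 for SS over C, -0.05 for SES over SS and -0.13 for SER over SS. The comparisons with C share the C mice and those with SS share the SS mice, so they do not repeat each other.

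Beside Malat1, the pattern across mice differed by gene. SS mice 19 and 21, which had the 2 highest Malat1 levels, were also the 2 highest of 12 for Med12, Med23, Med24 and Med26, and the 2 lowest for Cdk19, Med21, Med28 and Med31. Over all genes tested, these 2 mice were the 2 highest for 14.2% and the 2 lowest for 10.7%. The 4 of 33 subunits each way are near these shares, so nothing is read from their number. Cdk8 was above all non-SS mice in SS mouse 18 too, whose Malat1 was 505 CPM. With log2 Malat1 CPM as a covariate no subunit was called between SS and C by edgeR, nor any of the 14541 genes, and 4 subunits and 10.6% of all genes had an unadjusted p under 0.05. The SS over C log2 values under that covariate were 0.75 for Med12, 0.35 for Med12l, 0.33 for Cdk8, 0.31 for Med24, 0.11 for Med23, -0.55 for Med21 and -0.62 for Med6.

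**Figure D4:**
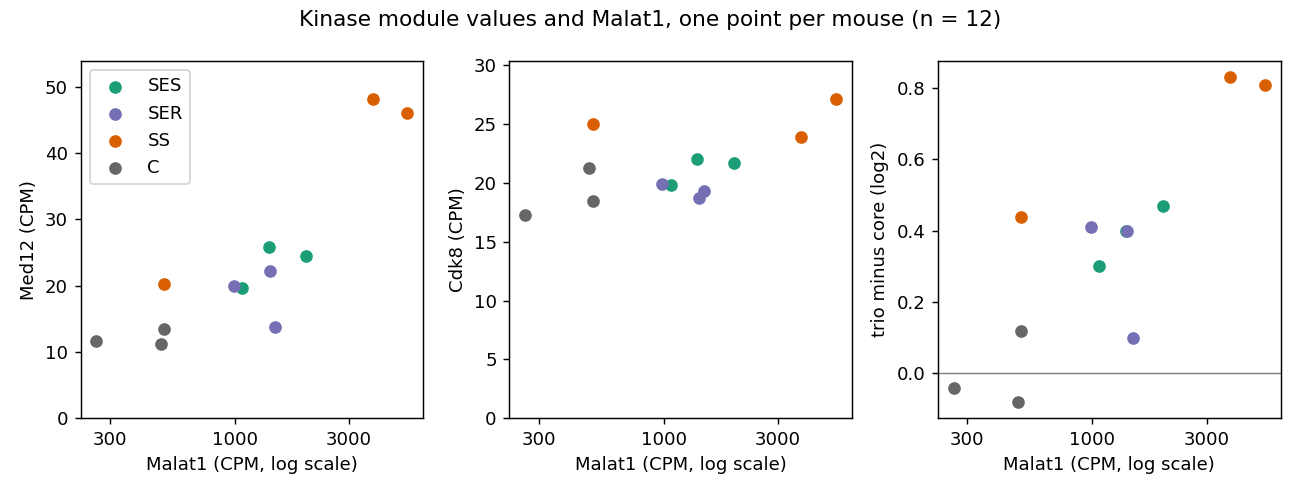
Med12 CPM, Cdk8 CPM and the trio minus core score (log2) plotted against Malat1 CPM on a log axis, with 1 point per mouse coloured by group. The 2 SS mice with Malat1 at 3761 and 5257 CPM have the 2 highest Med12 values, while Cdk8 is also high in the SS mouse at 505 CPM.

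Transcript length went along with the SS over C differences. Of 13 subunits with transcripts under 2 kb, 3 had a positive log2 fold change (median -0.14), against 7 of 11 between 2 and 4 kb (median 0.13) and 6 of 9 at 4 kb and over (median 0.17). Pearson's r of the log2 fold change with log2 length was 0.56 over 33 subunits and 0.24 over 14376 genes with a length, and with GC content it was 0.33 and 0.25. For the subunits, r with length was 0.65 for SES over C and 0.60 for SER over C, which use the same C libraries. The points share libraries, so these are descriptions. The kinase module transcripts ran from 2.79 kb (Ccnc) and 2.97 kb (Cdk8) to 11 kb (Med12l), and the head transcripts from 0.902 kb (Med11) to 3.96 kb (Med17), so modules differed in length with some overlap. After a correction for GC content and length in each library, no subunit and no other gene was called between SS and C by edgeR, and 7 subunits and 18.6% of the 14376 genes with a length had an unadjusted p under 0.05. The SS over C log2 values were then 1.37 for Med12, 0.40 for Cdk8, 0.68 for Med23, 0.46 for Med24, 0.43 for Med12l, -0.18 for Med21 and -0.22 for Med6.

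**Figure D5:**
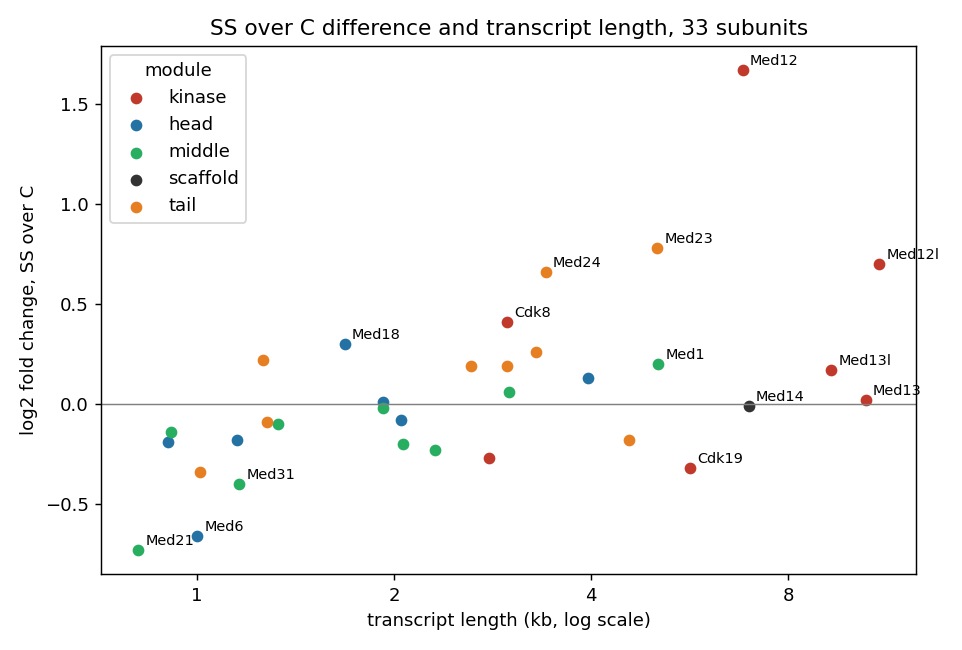
Log2 fold change of SS over C against transcript length in kb (log axis) for 33 subunits, coloured by module. The 2 lowest points, Med21 and Med6, are among the shortest transcripts, while Med13 and Med14 are long and lie near 0.

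The remaining comparisons ask whether running after stress, and the response to it, went with other Mediator levels. No subunit was called in any of them by edgeR. For SES over SS, 0% of all genes were called. Of 33 subunits, 6 had an unadjusted p under 0.05, against 9.01% of all genes, and limma-voom called none. DESeq2 called none either, but it gave no adjusted p for Med12, Med21, Cdk8, Med23 or Med6, so it could not call them. Med21 was higher in all 3 SES mice than in all 3 SS mice (log2 fold change 0.49 ± 0.14, edgeR adjusted p = 0.524), and Cdk8 lower (-0.26 ± 0.11, adjusted p = 0.53). Med12 had -0.71 ± 0.26 (edgeR adjusted p = 0.524) with overlap at SS mouse 18. Without SS mice 19 and 21 the sign of Med12 turned, to 0.21, as did that of Med23 (-0.46 with all mice, 0.25 without the 2) and Med24 (-0.32 and 0.02), while Med21 had 0.29 and Cdk8 -0.23. Groups did not overlap for 3 of 33 subunits, against 12.2% of all genes. Without SS mouse 18, edgeR called 4 subunits, Med12, Med23 and Med24 lower in SES and Med21 higher, with 8.69% of all genes called.

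For SER over SS, 0.0481% of all genes were called, and 6 subunits had an unadjusted p under 0.05, against 18.2% of all genes. Med12 had a log2 fold change of -1.04 ± 0.27 (edgeR adjusted p = 0.11) with overlap at SS mouse 18, and -0.12 without SS mice 19 and 21. Med21 was higher in all 3 SER mice (0.49 ± 0.14, adjusted p = 0.122) and Cdk8 lower in all 3 (-0.39 ± 0.12, adjusted p = 0.129). Without SS mice 19 and 21, Med21 had 0.28 and Cdk8 -0.36, and Med23 turned from -0.47 with all mice to 0.24. DESeq2 called Med12 and Med21, with 3.70% of all genes, and limma-voom no subunit. Groups did not overlap for 7 of 33 subunits, against 16.9% of all genes. Without SS mouse 18, edgeR called 6 subunits and 16.5% of all genes. Both comparisons use the SS mice of the comparison that singled out Med12, so these values are not independent of it.

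SES over SER shares no library with SS over C. By edgeR 0.0275% of all genes were called, and 1 subunit, Med20, had an unadjusted p under 0.05, against 3.72% of all genes. DESeq2 and limma-voom called no subunit. Med20, which pairs with Med18 in the movable part of the head, had 17.6, 18.7 and 16.6 CPM in SES mice, 16.6, 10.2 and 11.8 CPM in SER mice, 20.9, 14.5 and 17.9 CPM in SS mice, and 15.6, 22.5 and 17.9 CPM in C mice. Its log2 fold change of SES over SER was 0.45 ± 0.20 (adjusted p = 1), and SER mouse 6 reached the level of SES mouse 12. Med18 had the lowest value, -0.32, with 2.71, 3.68 and 4.82 CPM in SES mice, 4.02, 4.21 and 5.78 CPM in SER mice, 3.34, 3.37 and 3.4 CPM in SS mice, and 2.24, 3 and 2.92 CPM in C mice. All other subunits lay between these values, with a median of 0.02. Groups did not overlap for 1 of 33 subunits, against 10.8% of all genes.

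For SES over C, 0.179% of all genes were called, and 6 subunits had an unadjusted p under 0.05, against 16.2% of all genes. Med12 was higher in all 3 SES mice (log2 fold change 0.95 ± 0.27, edgeR adjusted p = 0.144; DESeq2 called it with 2.83% of all genes, limma-voom called no subunit), and Med12l likewise (0.63 ± 0.19, adjusted p = 0.166). The lowest value was -0.29 for Med11, a head subunit at 7.24, 6.02 and 6.32 CPM in SES mice, 6.62, 8.42 and 5.67 CPM in SER mice, 7.48, 5.72 and 7.81 CPM in SS mice, and 7.48, 7.42 and 9.02 CPM in C mice. Groups did not overlap for 13 of 33 subunits, against 26.0% of all genes. For SER over C, 1.19% of all genes were called, and 11 subunits had an unadjusted p under 0.05, against 18.6% of all genes. The highest value was that of Med18, which was higher in all 3 SER mice (log2 fold change 0.77 ± 0.26, edgeR adjusted p = 0.145), and the lowest that of Med20 (-0.53 ± 0.20, adjusted p = 0.17), with overlap. Med25, a tail subunit bound by activators, was higher in all 3 SER mice (0.35 ± 0.10, edgeR adjusted p = 0.101; DESeq2 called it with 5.20% of all genes, limma-voom called no subunit), and Med12 was higher in all 3 (0.63 ± 0.28, adjusted p = 0.249). Groups did not overlap for 15 of 33 subunits, against 25.3% of all genes. All 6 running mice were above all C mice for Med1, Med12, Med12l, Med13l, Med23 and Med24 and below them for Med21, Med6 and Med7. Over all genes, these patterns held for 6.66% and 7.29%. Both comparisons use the C mice of the comparison that singled out Med12. The Med12 values and its DESeq2 call are therefore not independent of that comparison and support nothing.

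Genes that work with Mediator were counted in the same fit. Of all 14541 genes tested, 9.83% were called between SS and C, 5.21% higher and 4.63% lower. Without SS mouse 19 or SS mouse 21, 0% of all genes were called. The counts below therefore only describe these libraries, and nothing is read from them. Between SS and C, 1 of 12 RNA polymerase II subunits was called higher (Polr2a, the catalytic subunit, log2 fold change 0.60 ± 0.14) and 1 lower (Polr2k, -0.58 ± 0.13). The median over the 12 was -0.23, against 0.02 for all genes. Of 18 general transcription factors none was called higher and 2 lower, Gtf2b (-0.50 ± 0.11) and Gtf2h5 (-0.39 ± 0.09). Of 13 TAF genes of TFIID, Taf13 was called lower (-0.55 ± 0.12) and none higher. Of 23 pause release and elongation factors 4 were called higher, among them Supt6 (0.45 ± 0.11) and Ccnt2 (0.89 ± 0.22), and none lower. Integrator, which cleaves nascent transcripts and ends their synthesis, had 2 of 14 subunits called higher, Ints1 (0.74 ± 0.14) and Ints2 (0.80 ± 0.20), and none lower. Cohesin and its loader had Mau2 called higher (0.54 ± 0.13) and 2 called lower, Rad21 (-0.35 ± 0.10) among them, of 10 genes. Of 8 coactivator genes, Crebbp was called higher (0.65 ± 0.16) and none lower.

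In the comparisons of running mice, the only calls in these lists were in SER over C, where Crebbp, an acetyltransferase, rose by a log2 fold change of 0.86 ± 0.16 (edgeR adjusted p = 0.0337) and Ncoa1, a nuclear receptor coactivator, by 0.42 ± 0.09 (adjusted p = 0.0384). No gene of the other 6 lists passed the edgeR test in SES over SS, SER over SS, SES over SER, SES over C or SER over C. The share of all genes called in SER over C was 1.19%.

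Cell type markers moved with some of these groups. Of all genes, 9.83% were called in SS over C, 0.179% in SES over C, 1.19% in SER over C and 0.0481% in SER over SS. Summed CPM of 4 dentate granule cell markers was 233 to 305 in SES, 203 to 279 in SER, 249 to 340 in SS and 168 to 217 in C, and 2 of the 4 were called higher in SS than in C. Summed CPM of 4 CA1 and subiculum markers was 517 to 644 in SES, 624 to 651 in SER, 345 to 517 in SS and 407 to 614 in C, with 1 of 4 called lower in SS than in C. Opalin, a gene of myelinating oligodendrocytes, was called lower against C in SES (log2 fold change -1.90 ± 0.25), SER (-1.38 ± 0.25) and SS (-1.01 ± 0.24), 1 of 5 markers of its list each time. Summed CPM of that list was 3945 to 6340 in SES, 3822 to 6902 in SER, 2980 to 9408 in SS and 5184 to 8620 in C. Pvalb, 1 of 5 interneuron markers, was called lower in SS than in C (-0.78 ± 0.13), with list sums of 579 to 809 in SES, 649 to 744 in SER, 560 to 714 in SS and 699 to 765 in C. Acta2, 1 of 5 endothelial and mural markers, was also called lower in SS than in C (-1.03 ± 0.27), with list sums of 55.2 to 75.4 in SES, 56.8 to 67.4 in SER, 51.2 to 85.5 in SS and 62.3 to 106 in C. In SER over C, Sox9 (0.74 ± 0.11) and Slc1a2 (0.65 ± 0.12), 2 of 5 astrocyte markers, were called higher, with list sums of 4433 to 5809 in SES, 5943 to 7235 in SER, 3939 to 4641 in SS and 4277 to 4751 in C. In the same comparison Csf1r, 1 of 5 microglial markers (0.59 ± 0.10), and Camk2a, 1 of 4 pyramidal neuron markers (0.63 ± 0.09), were called higher. In SER over SS, Sox9 (0.79 ± 0.11) and Pou3f1 of the CA1 list (0.94 ± 0.12) were called higher. Summed CPM of 5 thalamus markers was 68.2 to 98.1 in SES, 70.4 to 98 in SER, 99.3 to 193 in SS and 107 to 211 in C. All running mice were thus below all SS and C mice, and none of the 5 was called in any comparison. No marker of these lists was at 0 throughout. Their part in the Mediator values was not tested. Med9os, the noncoding RNA beside Med9, was at 0.17 to 1.21 CPM over all mice, with overlapping groups.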

How the data were processed

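The authors deposited 1 table of estimated counts per mouse, whole numbers for 33299 RefSeq transcripts, not normalized. TopHat and build mm10 were used, per the submitters' processing notes. Which counting program, strand setting and annotation were used is not stated in those notes or the labels. Reads appear to be divided among isoforms, so values are treated as estimates. Rounding changed none, and transcripts were summed per symbol.

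Genes were filtered with filterByExpr (minimum count 10), leaving 14541. The main test was edgeR 4.0.16 (R 4.3.3), a quasi-likelihood F test over all 12 libraries with TMM factors, 8 residual degrees of freedom and Benjamini-Hochberg adjustment over all genes. The biological coefficient of variation was 15.7%. Errors of fold changes are approximate standard errors, taken as the size of the log2 fold change divided by the square root of its F statistic. DESeq2 1.42.0 and limma 3.58.1 were alternatives. The scripts were tested on simulated data. Replicates of a group differed beyond counting noise, so none was a repeat deposit. A count of 0 allows up to 3 counts, or 0.191 to 0.322 CPM, for counting error only. The labels give each mouse as a separate animal.

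The subunits, module assignment and gene lists were chosen with earlier results of these data known. Full values were given for the kinase module, Med14, the 2 subunits with the highest mean CPM in head, middle and tail, and the highest and lowest fold change in each comparison. Of each other gene list, up to 2 called genes per comparison were named. Transcript lengths, GC content and positions came from GENCODE and RefSeq annotation of GRCm38.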

Additional observations from a re-analysis of the deposited data

How the results depend on the processing

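The 7 subunits called in SS over C stayed 6 or 7 under other scale factors, another filter or none, DESeq2 and limma-voom. In those fits 1209 to 2219 genes of all tested were called. The count was 0 in a fit of only SS and C, on transcripts as deposited, with the Malat1 covariate, with the GC and length correction, and without SS mice 19 and 21. In these 5 fits 0, 2, 0, 0 and 0 genes of all tested were called. In the fit of only SS and C, Med12 had 1.67 and Med21 -0.73. That fit uses the same SS and C libraries, so its folds could hardly move. Each of the 2 genes has 1 deposited transcript, so 1.66 and -0.73 on transcripts repeat the gene values by design. For genes with more, only the most abundant transcript was read. There Med23 had 1.04 against 0.78 for the gene, Med1 -0.06 against 0.20 and Med14 0.01 against -0.01. Leaving out each mouse gave 0 to 9 subunits for SS over C, with 0 to 3797 of all genes. It gave 0 to 4 for SES over SS, with 0 to 1283 genes, and 0 to 6 for SER over SS, with 4 to 2434. The count of subunits was 0 throughout for the comparisons of SES or SER with C and of SES with SER. Without both C mouse 2 and SS mouse 18, 4 subunits were called in SES over SS, 5 in SER over SS, 3 in SES over C and 1 in SER over C. DESeq2 called 2 in SER over SS, 1 in SES over C and 1 in SER over C, with 3.70%, 2.83% and 5.20% of all genes. The fit of only SES and C called 1. Nothing is read from the counts given here without a count over all genes.

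The trio minus core value of 0.72 for SS over C became 0.43 with the Malat1 covariate, 0.54 with the GC and length correction, 0.44 without SS mice 19 and 21, 0.36 with all 7 kinase genes and 0.55 against the more abundant core subunits. For SES over C it became 0.19 with Malat1 and 0.23 with GC and length, and for SER over C 0.13 and 0.10. Without SS mice 19 and 21 it was -0.05 for SES over SS and -0.13 for SER over SS, and with all 7 kinase genes -0.09 and -0.11. Its sign changed in none of these, but for SES over SER it was -0.01 without SER mouse 19, against 0.08. For 20 named subunits there were 2080 repeats over all comparisons. Only the 7 subunits called in SS over C had a call to lose, with 18 repeats each, and 68 of these repeats lost it. No called value changed sign, while 140 uncalled values did. The cause of these changes was not tested. No paired analysis was possible because the groups share at most 1 mouse number. With 3 mice per group, and only 24 to 64 counts per library for Med18, small differences may have been missed. No detection limit was computed.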
